A study of Mus musculus with 4 samples.

Results

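The genes described here encode 9 transcription factors of the Snail, Twist, E-protein and paired-related homeobox families: Snai1, Snai2, Snai3, Twist1, Twist2, Tcf3, Tcf4, Tcf12 and Prrx1. They were chosen as a list of named genes, out of 21631 protein-coding genes on the autosomes and X. For each gene, every ATAC-seq peak overlapping the gene body or the 10 kb on either side of it (the locus) was collected from each library, and peaks within 1 kb of either end of the gene were noted as gene-end peaks. ATAC-seq uses a transposase that cuts open DNA and inserts sequencing adapters, and a peak is a stretch where such insertions pile up. Endothelial cells were sorted by FACS from the retina of C57BL/6 mice labelled P16 (postnatal day 16), 2000 cells per library. Libraries control 1 and control 2 came from mice with the genotype control, and knockdown 1 and knockdown 2 from mice with the genotype Zeb1 knockdown, called Zeb1-CKO in the titles. The labels name no Cre driver or allele. They also leave unsaid whether libraries of the same group are separate animals. The p-values and SDs therefore describe these libraries only, and the spread between libraries may be technical.

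Snail proteins are zinc-finger repressors that bind E-boxes, the 6-letter sites CANNTG, and above all the form CAGGTG, which reads CACCTG on the other strand. The Zeb factors bind the same form. Twist proteins are basic helix-loop-helix (bHLH) factors that bind E-boxes as dimers with E-proteins, which are encoded by Tcf3 (E2A, with the isoforms E12 and E47), Tcf4 (E2-2) and Tcf12 (HEB). Prrx1 is a homeobox factor of mesenchyme. All of these families are known for driving epithelial-mesenchymal transition, in which epithelial cells lose their junctions, and Snail factors act also in the related endothelial-mesenchymal transition. The symbols Tcf3 and Tcf4 here mean the E-proteins and not the Wnt effectors Tcf7l1 and Tcf7l2, which have carried the same names.

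The peak lists held 7608 peaks in control 1, 13672 in control 2, 13689 in knockdown 1 and 19886 in knockdown 2. The lists give no read depth, so at a locus without a listed peak, closed chromatin and thin sequencing cannot be told apart. Of 15 endothelial marker genes, 11 had a locus peak in control 1 and all 15 had one in each of the other libraries. At gene ends the counts were 4, 7, 7 and 8 of the 15 (control 1 and 2 first, then knockdown 1 and 2). Cdh5, Tie1, Clec14a and Cldn5 were the 4 listed at an end in every library, and 7 markers, Pecam1, Tek, Emcn, Erg, Egfl7, Sox17 and Sox18, were listed at an end in none. Some marker genes of other cells had listed peaks too, which alone does not show that those cells were present. Over all protein-coding genes, 35.4%, 53.9%, 54.6% and 61.7% had a locus peak. At gene ends these shares were 22%, 38.5%, 39.5% and 45.2%. Of 10 pericyte and smooth muscle genes, 0, 1, 2 and 4 had a locus peak in the same order, and of 7 fibroblast genes 0, 0, 1 and 1. For 11 rod and cone photoreceptor genes the counts were 4, 11, 5 and 11, so that both libraries numbered 2 listed every one of these genes, and at gene ends 1, 7, 1 and 6. For 10 other retinal neuron genes the locus counts were 3, 3, 2 and 3, and for 8 glial genes 3, 3, 4 and 5. They were 3 in each library for 7 leukocyte genes, and 2, 3, 2 and 3 for 6 pigment epithelium genes. At gene ends the pericyte and smooth muscle genes had 0, 1, 1 and 1, and the fibroblast genes 0, 0, 1 and 1. The other retinal neuron genes had 1 in each library there, and the glial genes 3, 2, 2 and 3. Leukocyte genes had 1, 0, 0 and 0, and pigment epithelium genes 1, 2, 1 and 2.

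The sequence just upstream of the transcription start shows where E-boxes stand in these promoters. The RefSeq promoter table (GRCm38.p6, the assembly of mm10) held 6 of the 9 genes: Snai1, Twist1, Twist2, Tcf3, Tcf12 and Prrx1. The table had no entry for Snai2, Snai3 and Tcf4. The stretches of Snai1 and Tcf12 are shown because a peak covered all or part of them in 3 libraries, and those of Twist1 and Twist2 because no library listed a peak there. Each is written 5′ to 3′ on the strand of the gene and ends where the gene begins. Capitals mark every E-box CANNTG, which reads as CANNTG on both strands.
Snai1 (chr2:167537945-167538194, plus strand): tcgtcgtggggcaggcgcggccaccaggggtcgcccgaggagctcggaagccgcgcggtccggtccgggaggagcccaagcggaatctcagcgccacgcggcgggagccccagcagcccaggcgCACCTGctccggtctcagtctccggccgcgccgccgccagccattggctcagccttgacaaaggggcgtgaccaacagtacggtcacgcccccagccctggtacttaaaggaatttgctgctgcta
Tcf12 (chr9:72111894-72112069, minus strand): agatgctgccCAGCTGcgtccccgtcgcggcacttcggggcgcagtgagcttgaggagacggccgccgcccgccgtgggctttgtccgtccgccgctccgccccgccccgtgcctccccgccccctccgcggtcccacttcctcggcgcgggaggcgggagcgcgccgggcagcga
Twist1 (chr12:33957421-33957670, plus strand): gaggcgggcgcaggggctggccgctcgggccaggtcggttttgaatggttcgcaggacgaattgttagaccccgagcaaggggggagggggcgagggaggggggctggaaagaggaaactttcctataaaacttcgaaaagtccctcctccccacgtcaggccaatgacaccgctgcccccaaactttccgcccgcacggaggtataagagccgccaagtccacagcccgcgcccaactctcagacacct
Twist2 (chr1:91801211-91801460, plus strand): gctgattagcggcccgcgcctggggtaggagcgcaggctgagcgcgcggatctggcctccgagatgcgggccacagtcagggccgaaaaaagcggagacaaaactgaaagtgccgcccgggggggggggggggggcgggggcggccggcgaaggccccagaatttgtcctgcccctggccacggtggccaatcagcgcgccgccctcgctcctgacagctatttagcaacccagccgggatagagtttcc

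Snai1 carried 1 E-box in the 250 bases before its start, CACCTG, whose first base lies 126 bases before the start. This is the form bound by Snail and Zeb factors, and 17.3% of all 32619 listed promoters held CAGGTG or CACCTG in the same 250 bases. Tcf12 carried CAGCTG, first base 240 bases before the start site at 72111819. That form was in 13.1% of all promoters. Twist1 and Twist2 carried no CANNTG in these 250 bases, while 66.2% of all promoters did. The other stretches searched were those of Tcf3, with 1 CACTTG 54 bases before the start at 80433635, of Prrx1, with none, and of the 2 further listed starts of Tcf12, with 1 CAAGTG and none. The forms CATATG (3.36% of all promoters) and CAGATG or CATCTG (14.4%) were in none of the members' stretches. A match describes letters and does not show a bound site.

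The 9 loci fell into 2 groups that were the same in every library but control 1. Listed peaks stood at an end of all 3 Snail genes and all 3 E-protein genes in control 2, knockdown 1 and knockdown 2, and at Twist1, Twist2 and Prrx1 in no library. Control 1, the shortest list, had gene-end peaks at Snai2, Tcf3 and Tcf4. Gene ends of 3 of the 9 members were thus listed in control 1 and of 6 in each of the other libraries. Over all protein-coding genes the shares were 22% in control 1, 38.5% in control 2, 39.5% in knockdown 1 and 45.2% in knockdown 2. Over the locus, 4 of the 9 were listed in control 1 and 6 in each other library, against 35.4%, 53.9%, 54.6% and 61.7% of all genes. The ends of 3 members (33.3%) were listed in all 4 libraries, against 20.9% of all genes, and those of 3 in none, against 51.5%. Over the locus 4 members were listed in all 4, against 32.1%, and 3 in none, against 34.2%.

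No member was knockdown-only, meaning listed in both knockdown libraries and neither control, and none was control-only. This held at gene ends and over the locus. Of all genes with any gene-end peak, 7.82% were knockdown-only and 0.0667% control-only. Over the locus the shares were 6.01% and 0.288%, so counts of 0 among 6 members with a peak lie near the background. With 2 libraries against 2, the two-sided exact permutation test cannot go below p = 0.333, and no difference in these counts can pass a threshold. Snai1, Tcf12 and, at its own end, Snai3 were listed in control 2 and both knockdown libraries but not in control 1, a pattern found at the ends of 12.6% of all genes. Without control 2, these 3 gene ends become knockdown-only, and Snai1 and Tcf12 do so over the locus. The shares of knockdown-only genes above were taken with control 2 included and are no background for that setting.

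**Figure D1:**
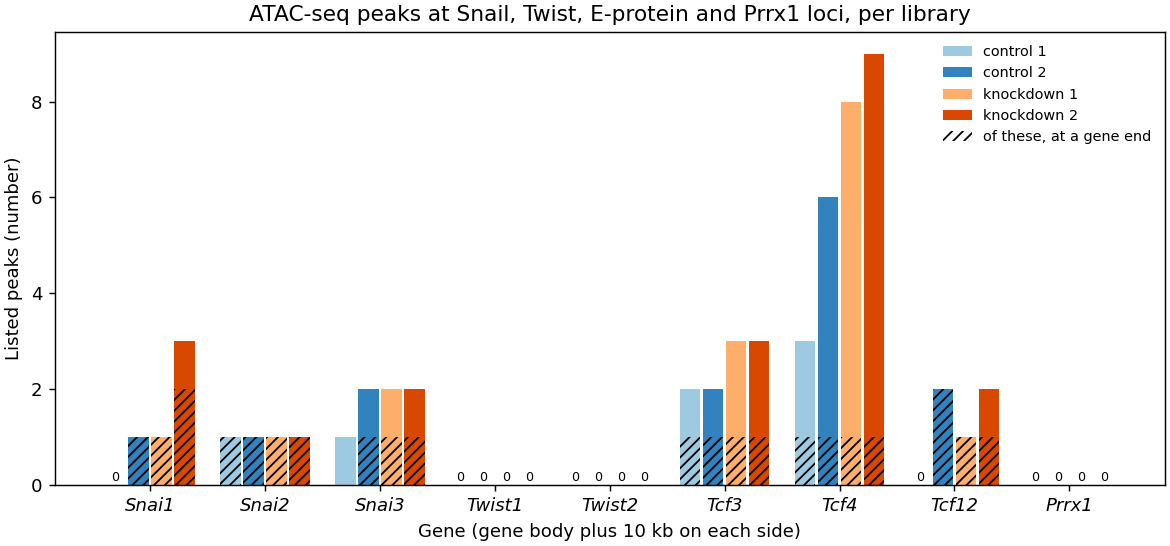
Bars give the number of listed peaks (vertical axis) in the gene body plus 10 kb on each side of each gene (horizontal axis), 1 bar per library, and hatching marks the peaks within 1 kb of a gene end. Tcf4 has 3 to 9 peaks per library, while Twist1, Twist2 and Prrx1 have 0 in all 4.

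Summed over the 9 loci, the lists held 7 peaks in control 1, 14 in control 2, 16 in knockdown 1 and 20 in knockdown 2. The order is that of the list lengths. The mean was 10.5 ± 4.95 peaks (SD, n = 2) for control and 18 ± 2.83 peaks (SD, n = 2) for knockdown, and the groups do not overlap. Per 10000 listed peaks, the loci held 9.20, 10.2, 11.7 and 10.1 peaks in the same order. On this scale knockdown 2 lay below control 2, and the group means were 9.72 ± 0.735 (SD, n = 2) and 10.9 ± 1.15 (SD, n = 2). Keeping only the 7608 strongest peaks of each library reduced the difference between the group means from 7.5 to 1 peak.

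Snai1, best known as a repressor of E-cadherin (chromosome 2, 167538195 to 167542814, plus strand), had a peak over its transcription start in 3 libraries. The peak ran from 167537933 to 167538250 in control 2, from 167537902 to 167538339 in knockdown 1 and from 167537906 to 167538371 in knockdown 2. In each of these it covered all 300 bases of the RefSeq promoter window, from 250 before to 50 after the start, and with it the CACCTG printed above. The peak stood 37.7% from the top of the control 2 list by the authors' −log10 q, 18.4% in knockdown 1 and 16.8% in knockdown 2. These places describe each list alone, since the lists were called separately and differ in length. In control 1 the nearest listed peak was 116 kb away from the gene. Knockdown 2 alone listed 2 further peaks, one 401 bp beyond the far end of the gene and one 3600 bp beyond it.

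Snai2, also called Slug and known for its part in neural crest migration and in sprouting vessels (chromosome 16, 14705852 to 14709395), held exactly 1 peak in each of the 4 libraries. All 4 peaks lay over the low-coordinate gene end and merged into 1 region from 14705355 to 14706028. Peak widths were 433 bp in control 1, 577 bp in control 2, 663 bp in knockdown 1 and 637 bp in knockdown 2. Both knockdown peaks were wider than both control peaks. Over all listed peaks the median widths were 388, 343, 445 and 385 bp in the same order. The share of all regions whose peaks stand in this order is not given here. The −log10 q was 2.08 in control 1, 4.00 in control 2, 6.52 in knockdown 1 and 6.64 in knockdown 2, each from a separately called list. The corresponding places were 68.1%, 51.8%, 30.3% and 27.6% from the top of each list. Under a stricter minimum of 3 on −log10 q, the control 1 peak was lost, and 3 libraries still listed Snai2.

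Snai3, the least studied Snail gene (chromosome 8, 122454204 to 122460809), had a peak over its high-coordinate end in 3 libraries. It stood in the last places of the list in control 2, 94.1% from the top, against 24.8% in knockdown 1 and 15.4% in knockdown 2. Here the call depends on the threshold. With that minimum, or with lists of equal length, the control 2 peak drops out and the end of Snai3 becomes the 1 knockdown-only gene end among the members. The share of all genes that are knockdown-only under these settings is not given here. A second region, from 122443320 to 122444689, was held by all 4 libraries and is the reason why Snai3 counts as open over its locus in control 1. That region lies 9515 bp from Snai3 and within 1 kb of an end of Mvd, an enzyme gene of the cholesterol pathway.

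**Figure D2:**
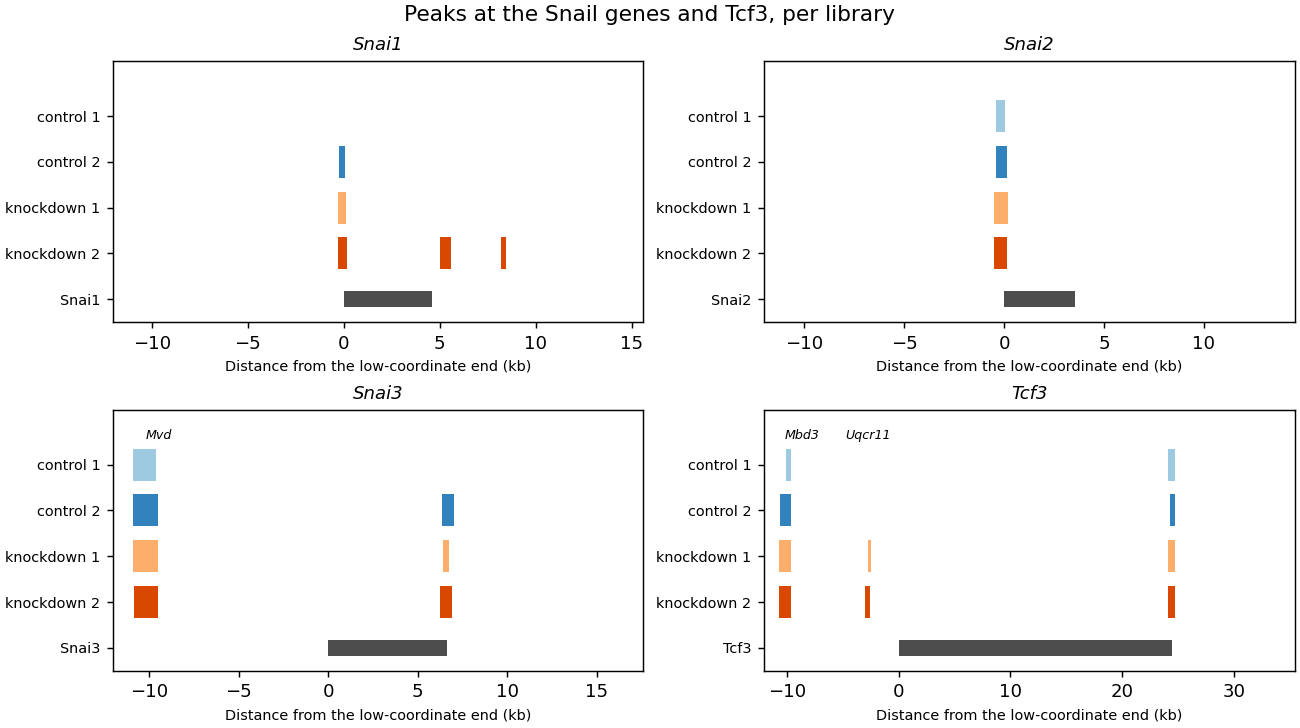
Each panel shows 1 gene (grey bar) and the listed peaks of the 4 libraries (coloured bars), with distance in kb from its low-coordinate end on the horizontal axis and libraries on the vertical axis. Italic names mark peaks at the end of a neighbouring protein-coding gene, Mvd for Snai3 and Mbd3 and Uqcr11 for Tcf3.

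Tcf3, the gene of E12 and E47 (chromosome 10, 80409541 to 80433976, minus strand), had a peak at its 5′ end in all 4 libraries. The merged region ran from 80433628 to 80434321. This was the best placed gene-end peak of the members in control 1, control 2 and knockdown 1, at 26.9%, 7.07% and 16.3% from the top. In knockdown 2 it stood at 16.7%, behind those of Snai3 at 15.4% and Tcf4 at 15.5%. The controls listed 2 peaks each over the locus and the knockdown libraries, whose lists were longer, 3 each. The exact two-sided permutation test gave p = 0.333, the smallest that 2 against 2 allows. The share of all genes with such an order of counts is not given here. With a minimum of 3 on −log10 q, and also with lists of equal length, each library kept 2 peaks and the difference between groups was gone. The additional knockdown peak made a knockdown-only region from 80406581 to 80407083, 2458 bp beyond the 3′ end of Tcf3. It is within 1 kb of an end of Uqcr11, a gene of respiratory complex III, and stood 71.1% and 91.6% from the top of the 2 knockdown lists. The strongest region of the locus, held by all 4 libraries at 2.67% to 7.15% from the top, lay at an end of Mbd3, a subunit of the NuRD corepressor complex. Of the 3 regions counted for Tcf3, only the one at its 5′ end touches an end of Tcf3 itself.

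Tcf12, the HEB gene (chromosome 9, 71844252 to 72111893, minus strand), is 268 kb long and held 0, 2, 1 and 2 peaks in control 1, control 2, knockdown 1 and knockdown 2. The medians over 442 other genes of 214 to 333 kb were 0, 1, 1 and 1. Its 5′ end had a broad peak of 1137 bp in control 2, 1347 bp in knockdown 1 and 1067 bp in knockdown 2, and none in control 1. This peak spans both listed starts at that end, 72111819 and 72111201, and covered all 300 bases of the second promoter window in each of the 3 libraries. The CAGCTG printed above was inside the peak of knockdown 1 only. In spite of their width these peaks were weak, at 85.9%, 91.9% and 93.9% from the top of their lists. Under the minimum of 3 on −log10 q, no library kept the 5′ peak, and the 1 peak left in the locus was one near the 3′ end in control 2, from 71845147 to 71845414. Knockdown 2 alone listed a peak from 71897408 to 71897607 inside the gene, 1312 bp upstream of the listed start at 71896096.

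Tcf4, the gene of E2-2 and the longest of the 9 (chromosome 18, 69343429 to 69687967, 345 kb), held more peaks than any other member in each library. It had 3 peaks in control 1, 6 in control 2, 8 in knockdown 1 and 9 in knockdown 2. Both knockdown libraries lie above both controls (mean difference 4 peaks, exact permutation p = 0.333, two-sided). The list lengths stand in the same order, and the share of all genes with this order is not given here. Restricted to the 7608 strongest peaks per list, Tcf4 kept 3, 4, 3 and 4 peaks and the groups overlapped. For a gene of its length Tcf4 held many peaks. Among 339 other genes of 276 to 429 kb, a range chosen after the Tcf4 counts were seen, the median was 0 peaks in control 1 and 1 in each other library. Of these genes, 326 had fewer peaks than Tcf4 in control 1, 331 in control 2, 337 in knockdown 1 and 327 in knockdown 2.

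The Tcf4 peaks made up 15 merged regions, and every library held 3 of these. The first, from 69344025 to 69344625, lay inside the gene 596 bp from its low-coordinate end. The other 2 lay in the gene body 72.0 kb and 204 kb from that end, from 69415461 to 69416042 and from 69547784 to 69548224. In control 1 these 3 were the only Tcf4 peaks, at 35.6%, 63.4% and 49.2% from the top of the list. The region 72.0 kb in stood at 26.7%, 22.0% and 20.9% in control 2, knockdown 1 and knockdown 2. The region 204 kb in stood at 22.8%, 53.2% and 24.2%.

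Of the remaining 12 Tcf4 regions, 10 were found in 1 library each: 2 in control 2, 4 in knockdown 1 and 4 in knockdown 2. One region, from 69527999 to 69528402, 185 kb from the low-coordinate end, was knockdown-only, at 67.2% from the top in knockdown 1 and 41.3% in knockdown 2. One, from 69585564 to 69586457, was held by control 2 and knockdown 2, which also listed a locus peak at all 11 photoreceptor genes. Whether photoreceptors were present, and any link of this region to them, was not tested.

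**Figure D3:**
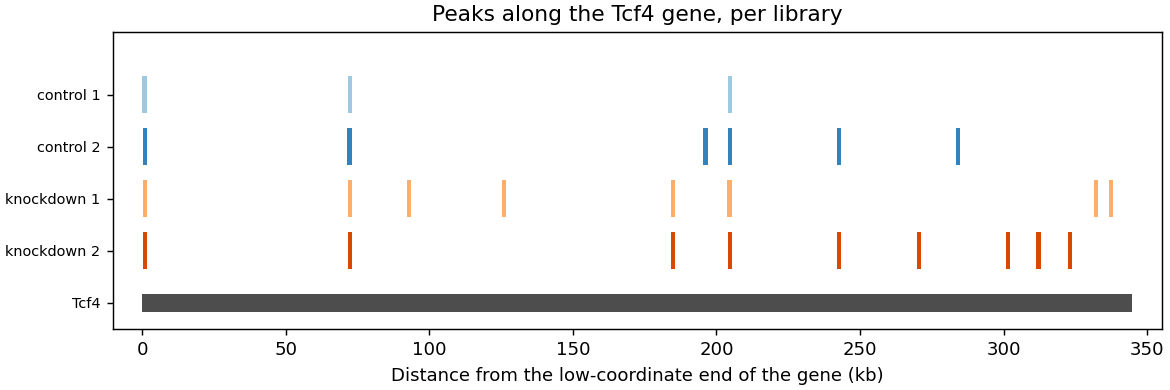
Marks show the listed peaks of each library (vertical axis) along Tcf4 (grey bar), with distance from the low-coordinate end in kb on the horizontal axis and marks drawn wider than the peaks so that they can be seen. The positions near 1, 72 and 204 kb carry a mark in all 4 libraries, and most others in 1 library.

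Over all members, the peaks merged into 27 regions. All 4 libraries held 7 (25.9%, against 20.3% of the 25263 regions of the series), and 1 library alone held 14 (51.9% against 41.9%). Knockdown-only regions numbered 2 (7.41%, against 10.1% of all regions), the one near Uqcr11 and the one inside Tcf4, and control-only regions 0 (against 0.158%). Neither of the 2 lies at an end of a member. These shares lie near the background, and 27 regions are too few to read more from them. The lists of control 2 and knockdown 1 were nearly equally long. Of the member regions, 10 were in both lists, 4 in control 2 but not knockdown 1, and 6 in knockdown 1 but not control 2. The same split over all regions is not given here, so these counts have no background.

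**Figure D4:**
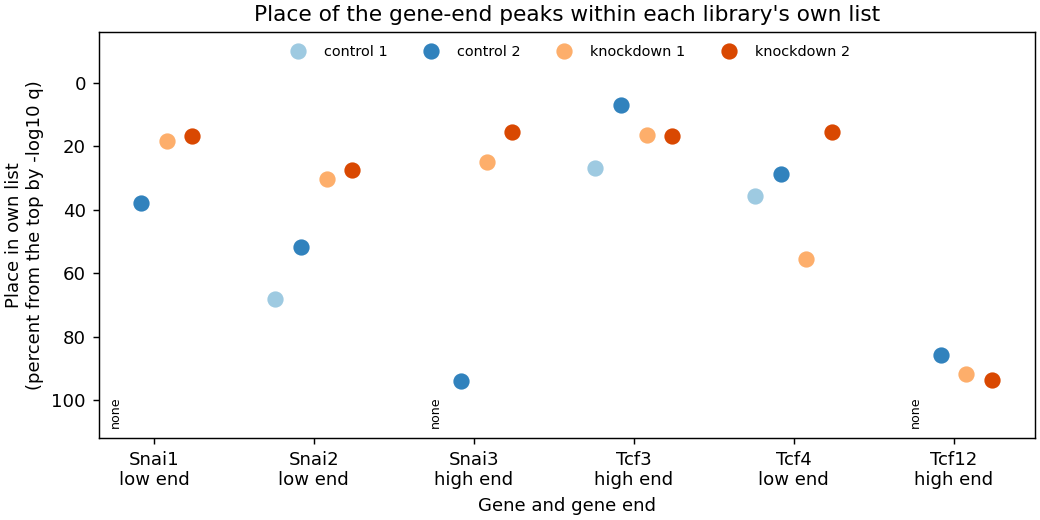
Points give the place of the peak at the named gene end within its own library's list, in percent from the top by −log10 q (vertical axis, strongest at the top), for each gene (horizontal axis) and library. The Tcf3 peaks stand between 7.07% and 26.9%, the Tcf12 peaks lie between 85.9% and 93.9%, and "none" marks control 1 at Snai1, Snai3 and Tcf12.

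Twist1, Twist2 and Prrx1 held 0 peaks over their loci in every library, as did 34.2% of all genes. Even with 50 kb on each side none of the 3 gained a peak. Twist1 (chromosome 12, 33957671 to 33959831), a bHLH factor of mesoderm and neural crest, lay 344 kb from the nearest peak in control 1 and 528 kb in each of the other 3 libraries. Of all other genes, 12.9%, 7.70%, 6.72% and 5.52% were at least as far from a peak in control 1, control 2, knockdown 1 and knockdown 2. Twist2 (chromosome 1, 91801461 to 91848034), its close relative in dermis, lay 260 kb from the nearest peak in control 1, 261 kb in control 2 and knockdown 1, and 216 kb in knockdown 2. Prrx1 (chromosome 1, 163245119 to 163315145), a factor of limb and craniofacial mesenchyme, lay 388 kb from a peak in control 1. In control 2 the distance was 64.9 kb and in both knockdown libraries 88.5 kb. For Twist2, 16.6%, 13.5%, 12.6% and 11.9% of genes were at least as far from a peak, in the same library order. For Prrx1 these shares were 11.5%, 27.5%, 23.6% and 19.8%. The peak nearest to Twist2 in knockdown 2 lay on the other side of the gene from that in the other libraries, and was weak, 90.3% from the top of its list.

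The promoter table allows a comparison of base composition for 3 listed members, Snai1, Tcf3 and Tcf12, and for the 3 unlisted ones. The Twist1 and Twist2 promoter windows were 66% and 64.7% G and C with 27 and 25 CpG, close to Tcf3 with 61.7% and 25 CpG, and below Snai1 with 70% and 34. The 2 Tcf12 windows at the 5′ end had 71.7% and 75.7% with 41 and 45 CpG, and the one inside the gene 36.3% with 0. The median over all 32619 promoters was 53% and 7 CpG. Among promoters with at least the G and C content of Twist1, 76.9% overlapped a peak in at least 1 library, and for Twist2 this share was 76.3%. The Prrx1 window, 47.7% G and C with 6 CpG, resembled the median promoter. Of promoters with at least its G and C content, 46.5% overlapped a peak in at least 1 library, against 33.6% of all promoters. That set takes in all richer promoters, so its share is not one for promoters like that of Prrx1.

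The Id genes encode helix-loop-helix proteins without a DNA-binding region, which bind E-proteins and keep them off DNA. They were held widely: the ends of Id2, Id3 and Id4 were listed in every library, and that of Id1 in every library but control 1. Among 12 bHLH partners of E-proteins in blood, endothelium and mesoderm, 0, 0, 2 and 2 had a gene-end peak in control 1, control 2, knockdown 1 and knockdown 2, and 6 had no locus peak in any library. Lyl1, a bHLH factor of blood and endothelium, was knockdown-only at its gene end, by a region on chromosome 8 from 84701438 to 84701872, while a second region 1062 bp from Lyl1 and at an end of Trmt1 was also held by control 2. Scx, the tendon factor scleraxis, was knockdown-only over its locus, but its peak in knockdown 1 and that in knockdown 2 lay in different places, 56 bp and 1862 bp from an end of the gene. Among 9 bHLH factors of retinal neurons, 7 had no locus peak in any library. Their gene-end counts were 0, 1, 0 and 1 in the same order, and their locus counts 1, 1, 0 and 1. The gene-end counts rest on 1 gene, Neurod1, which was named after its values were seen.

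Of 8 Hes, Hey and Bhlhe4 repressors, bHLH factors downstream of Notch and other signals, 4, 6, 5 and 7 had a gene-end peak. Hey2, Bhlhe40 and Hey1 were the best placed of those held by all 4 libraries, and Heyl was knockdown-only over its locus. The Heyl peaks of the 2 knockdown libraries did not overlap, and that of knockdown 1 lay at an end of Nt5c1a. Among 20 corepressors and stability regulators of Snail proteins, the counts were 11, 16, 17 and 18. Gsk3b, the kinase that marks Snail for destruction, Fbxo11, a ubiquitin ligase subunit, and Rcor1, the CoREST scaffold, led those held by all 4. Wtip, a LIM protein of the Ajuba family that binds the Snail repressor domain, was knockdown-only at its gene end and over its locus, by 1 region that both knockdown libraries held on chromosome 7 from 34132641 to 34133599. Of 9 known inducers of Snail and Twist genes, 5, 7, 7 and 7 had a gene-end peak, with Stat3, Egr1 and Yy1 the best placed.

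Among 11 other factors of epithelial-mesenchymal transition, 2, 4, 4 and 5 had a gene-end peak. Tbx3 and Sox4 were held by all 4, and Grhl2, an epithelial factor that opposes the transition, was knockdown-only at its gene end and its locus. Of 5 further zinc-finger genes with the SNAG repressor domain of Snail, 0, 1, 0 and 1 had a gene-end peak, and of 7 paired-related homeobox genes 0, 0, 0 and 1. Over the locus these counts were 1, 2, 2 and 4 of 5 and 0, 1, 1 and 2 of 7. Over these 9 lists with 85 genes, 49 genes had any gene-end peak, 3 of these knockdown-only, against 7.82% of all such genes, and 0 control-only. Over the locus 63 had a peak, 4 of these knockdown-only, against 6.01%, and 0 control-only. The knockdown-only genes named in these lists are therefore about as frequent as among all genes.

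**Figure D5:**
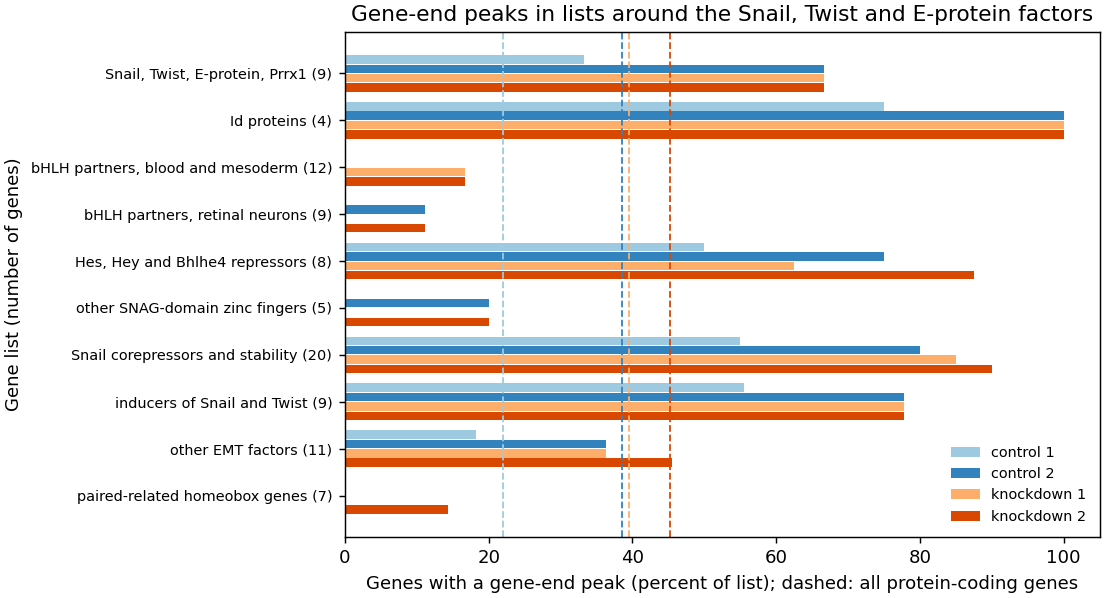
Bars give the share of each gene list with a gene-end peak (horizontal axis, percent) in each library, with the number of genes per list in brackets, and dashed lines give the same share over all protein-coding genes. The Id genes, the Snail corepressors and the inducers lie right of the dashed lines, and the bHLH partner and paired-related homeobox lists lie left of them.

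Genes with the same pattern were taken as those with identical locus counts in all 4 libraries. Tcf4 shared its counts of 3, 6, 8 and 9 with no other gene. Tcf3 shared its counts with 53 genes, those closest in length being Trim7, Leo1 and Ywhag, and Snai1 with 60, closest Nxph3, Pgls and Lcn4. Tcf12 shared its counts with 211 genes (among them Zdhhc14 and Xkr6), Snai3 with 571 (Rbm7, Cybc1 and Zfp707) and Snai2 with 2583 (Fbxo48, Rita1 and Rpl34).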

How the data were processed

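The submitters' processing notes name the build mm10 and list MACS2 2.1.1, Bowtie2 2.3.2, bedtools 2.26.0, Trimmomatic 0.36, SAMtools 1.3 and Picard 2.9.2. Their roles and settings, the filter on peaks and any shift for the transposase offset are not given in the sources used here. The authors deposited 1 broad peak list per library, not pooled. For each peak the authors deposited the fold over background in that library, −log10 values of p and q, and a score, which is the −log10 q multiplied by 10 and limited to 1000. Fold enrichment and −log10 q served only to place peaks within a list.

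Gene ends came from a RefSeq table on GRCm38.p6, without strand. Strand and starts came from the promoter table. Peaks were merged across libraries where they overlapped or touched, and an overlap of 1 bp made a region count as held by a library (Python 3.11.15, pandas 2.3.3). The functions were tested on simulated peak lists. The groups and replicate numbers came from the sample titles. No count was tested beyond the exact permutation test.

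The members and gene lists were chosen with earlier results of these data known. Named in full were the members. Of other lists, knockdown-only or control-only genes were named, and up to 3 per list held by all 4 libraries at a gene end, in order of their weakest place. For each member with a peak, up to 3 genes with the same 4 locus counts and the closest length were named. As alternatives, a minimum of 3 on −log10 q was tried, and equal list lengths, other windows, region rules and each library left out.

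One gene that the naming rule selects is not reported here.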

Additional observations from a re-analysis of the deposited data

How the results depend on the processing

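Of 95 recomputed values over 16 results, 83 stayed, 12 moved and 0 reversed. A count stayed if it was within 1.5 times the reported count, or if it was 0 both times. The difference between groups stayed if it was within the spread between libraries of 4.03 peaks. Only that difference could reverse, since counts cannot be negative. Its value with the replicate number as a block, also among the 83, could not move. With a −log10 q of at least 3, knockdown-only gene ends rose from 0 to 1 member (Snai3) and regions held by all 4 libraries fell from 7 to 4. With the 7608 strongest peaks, knockdown-only gene ends were again 1 (Snai3), knockdown-only regions 1, and the difference between group means 1 peak. Where a library had to cover 50% of a region, 4 regions were held by all 4. Leaving out each library in turn gave 0 to 3 knockdown-only gene ends, 0 to 2 knockdown-only loci, 2 to 9 knockdown-only regions, 0 to 3 control-only regions and a difference of 4 to 11 peaks. The highest values came without control 2 for the gene ends (3), the loci (2) and the difference (11), without knockdown 1 for knockdown-only regions (9) and without control 1 for control-only regions (3). A group left with 1 library needs a peak in that library only. The shares of all genes and regions given in the results hold for the full lists of all 4 libraries. None are given for these alternatives, so the counts have no background here. Control-only members stayed at 0 under every alternative run.

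With the replicate number as a block, the mean difference in member peaks was 7.5, from 9 within number 1 and 6 within number 2. In this balanced layout that mean equals the difference without a block by construction. It therefore cannot show whether the result depends on the replicate number. Nothing in the labels says that a number marks a shared animal or batch.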
